A study of Mus musculus with 6 samples.

Results

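Genes that the transcription factor ATF4 controls, or that supply cells with amino acids, were followed in mouse bone marrow. The members are 31 listed genes, found by their symbols in a deposited table of 14992 genes, which held all 31. The rule uses symbols alone, but the list was drawn up with earlier results of these data known. They comprise 6 transcription factors and regulators, 4 stress effectors and other targets, 5 amino acid transporters, 6 enzymes of serine and folate metabolism, 4 enzymes of asparagine, proline and cysteine metabolism, and 6 tRNA synthetases. Messenger RNA was measured in 3 libraries from recipients given a PI3Kalpha/beta inhibitor (75 mg/kg for 21 days) and in 3 libraries from recipients given vehicle for the same 21 days. Both groups were irradiated C57/BL6 mice that had received whole marrow of Dnmt3a knockout mice, so every library carries the knockout, and the labels describe the transplanted cells as leukaemic. Dnmt3a encodes a DNA methyltransferase. The age and sex of the animals, how the knockout was made, and how many host cells the marrow still held are not given in the sources used here. Libraries are numbered 1, 3 and 5 for inhibitor and 1, 2 and 3 for vehicle, and since the labels do not state that each came from its own mouse, p-values measure only the spread between these libraries.

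ATF4 is a transcription factor of the bZIP class whose protein is made when the initiation factor eIF2 is phosphorylated, for example by the kinase GCN2 when uncharged tRNA accumulates. Signals through PI3K, AKT and mTOR complex 1 also raise its translation. ATF4 binds as a dimer, often with a C/EBP factor, to composite sites near genes that import amino acids, make serine, glycine, asparagine and proline, supply one-carbon units for nucleotide synthesis, and charge tRNAs. Because ATF4 is controlled mainly at translation, its targets can move without a like movement of its own transcript.

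The libraries held between 28198638 and 59384880 counts over genes. Levels are given in CPM, read counts scaled to a common library size with TMM factors. Dnmt3a had 20.2, 15.4 and 15.5 CPM in inhibitors 1, 3 and 5 and 24.9, 17.3 and 18.9 CPM in vehicles 1, 2 and 3. A count over the whole gene does not check a knockout that both groups carry. Marrow identity was read from marker lists. The 11 neutrophil late granule genes in the table summed to between 101100 and 125000 CPM in inhibitor libraries and between 40610 and 66020 CPM in vehicle libraries. Vehicle 1 differed most from its group and carried a quality weight of 0.161 in limma voom, the lowest of the 6, so values without it stand beside many results, and the plot of log2 fold changes shows them for every tested member.

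The next lines show where members carry the composite site that ATF4 and C/EBP factors bind. The letters TGATGNAA (TTNCATCA on the other strand) were searched in RefSeq promoters of 300 bases on GRCm38.p6, running from 250 bases before an annotated start to 50 after it. That start can lie inside the gene span given below, as it does for Slc7a11, Slc3a2 and Mthfd2. Of the 31 members 26 had a promoter entry, the others being Slc7a5, Slc1a5, Cth, Wars and Nars. In 9 of these 26 members (34.6%) at least 1 promoter held the letters, against 4.51% of all 27025 genes with a promoter and 2.89% of the 10084 tested genes that had one. The 9 were Slc7a11, Aars, Gars, Trib3, Nupr1, Asns, Pycr1, Chac1 and Vldlr. No promoter of the 6 serine and folate enzymes held these letters in this window. A match is a run of letters, not a shown binding site. The list was made of genes that ATF4 controls or that supply amino acids, so these shares test nothing about ATF4 here. Shown here are the transporter with the highest fold change, synthetases, regulators that were low with inhibitor, and Asns, each 5′ to 3′ on the strand of the gene with the matched letters in capitals and the GRCm38 position.
Slc7a11 (chr3:50443633-50443699, minus strand, 2 matches): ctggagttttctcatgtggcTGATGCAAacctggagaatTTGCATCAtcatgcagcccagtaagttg
Nupr1 (chr7:126625553-126625600, minus strand): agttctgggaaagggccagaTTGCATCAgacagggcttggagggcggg
Trib3 (chr2:152344028-152344057, minus strand): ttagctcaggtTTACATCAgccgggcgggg
Aars (chr8:111033710-111033757, plus strand, the first of 2 matches): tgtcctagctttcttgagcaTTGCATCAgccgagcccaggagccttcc
Gars (chr6:55037951-55037998, plus strand): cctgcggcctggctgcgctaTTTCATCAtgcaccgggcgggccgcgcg
Asns (chr6:7693205-7693252, minus strand): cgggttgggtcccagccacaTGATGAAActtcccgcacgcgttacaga
Counted from the first base of the RefSeq start used, taken as 0, the first match began at -66 in Slc7a11, -110 in Nupr1, 14 in Trib3, -112 in Aars, -30 in Gars and -23 in Asns.

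Across the members, transcript levels lay mostly below vehicle with the inhibitor. Of 30 tested members 25 had a negative log2 fold change (83.3%), against 6398 of all 12806 tested genes, and their median was -0.52 against 0.000931. In the edgeR quasi-likelihood test, adjusted over all tested genes, 2 members fell: Mthfd2, the mitochondrial folate dehydrogenase, and Nupr1, a small stress-induced chromatin protein. Across all genes tested, 1.19% were called lower and 0.633% higher. edgeR called 0 members higher, while 1 was higher and 15 were lower at an unadjusted p under 0.05 (9.68% and 11.9% of all tested genes). DESeq2 called 12 members lower and 1 higher, where it called 6.04% of its tested genes lower and 3.95% higher. The authors' deposited table likewise has 12 members lower and 1 higher at its own adjusted p under 0.05, with 6.06% and 3.91% of its genes. In 17 of the 30 every inhibitor library lay below every vehicle library (16.2% of all tested genes), in 2 every inhibitor library lay above (14.4%), and in 11 the groups overlapped. In bulk marrow, fewer cells of a type and less RNA per cell cannot be told apart.

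The edgeR calls depended on single libraries. Without vehicle 1, edgeR called 8 members lower (4.89% of the genes in that fit) and 2 higher (3.10%), and DESeq2 called 11 lower (6.56%) and 2 higher (5.96%). The 8 that edgeR called lower were Mthfd2, Nupr1, Slc7a5, Slc3a2, Aars, Wars, Atf5 and Trib3, and the 2 it called higher were Slc7a11 and Ddit3. Without any 1 of the other 5 libraries it called 0 members. In those 5 fits 12 to 15 members were lower and 1 was higher at an unadjusted p under 0.05, beside 7.55% to 12% of all genes lower and 6.49% to 8.78% higher. Without vehicle 2 edgeR still called 84 genes lower and 7 higher over the whole table, and without each of the other 4 it called 0 genes.

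**Figure D1:**
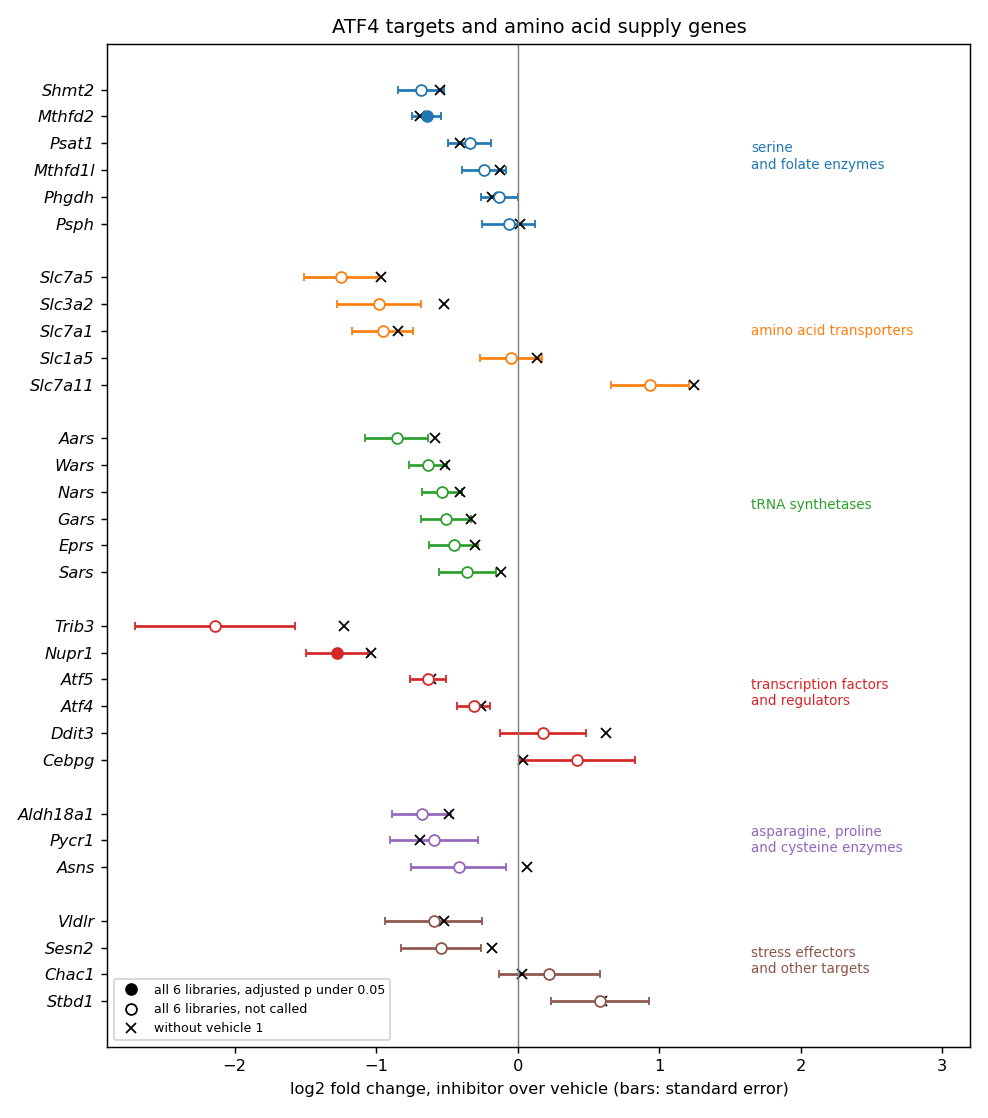
Log2 fold change of inhibitor over vehicle (x axis) for the 30 tested members, grouped by role (colours), with standard errors as bars and n = 3 libraries per group; filled circles passed the edgeR test and crosses show the value without vehicle 1. Most points lie left of 0, the filled ones are Mthfd2 and Nupr1, and Slc7a11 lies farthest right at 0.93.

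Cell type markers also moved with the groups and with vehicle 1. Their counts stand beside 1.19% of all tested genes called lower and 0.633% called higher by edgeR. DESeq2 called 6.04% of its genes lower, and 11.9% of all tested genes were lower at an unadjusted p under 0.05 by edgeR. The 15 macrophage genes all had negative log2 fold changes, with 7 called lower by edgeR, and summed to 542, 878 and 806 CPM in inhibitors 1, 3 and 5, against 8037, 2190 and 2427 CPM in vehicles 1, 2 and 3. The 10 tested erythroid genes had 0 calls by edgeR or DESeq2 and 0 at an unadjusted p under 0.05, and the list summed to 1265, 2656 and 2903 CPM in inhibitors 1, 3 and 5 and 6126, 2004 and 2137 CPM in vehicles 1, 2 and 3. Every tested erythroid gene was highest in vehicle 1 and lowest in inhibitor 1. The 11 tested stroma genes all had negative log2 fold changes and were highest in vehicle 1. Their median of -1.43 was -0.46 without vehicle 1. edgeR called 0 of them, DESeq2 called 4 lower, and 6 had an unadjusted p under 0.05. Of 10 monocyte genes 9 were negative and edgeR called 2 lower. In the other direction, 11 of 12 B lymphoid genes had positive values (median 1.99, 3 called higher), as did 11 of 11 tested neutrophil late granule genes (median 0.82, 1 called higher). Positive values were also held by 9 of 10 stem and progenitor cell genes (2 called higher by edgeR), 7 of 8 neutrophil primary granule genes (1 called higher, 1 lower) and 7 of 8 megakaryocyte genes (0 called). Negative values were held by 11 of 12 T and NK cell genes (1 called lower) and 6 of 8 plasma cell genes (0 called). As in the erythroid, macrophage and stroma lists, the summed CPM of the members was highest in vehicle 1 and lowest in inhibitor 1. The members summed to 1566, 1850 and 1888 CPM in inhibitors 1, 3 and 5, and 2976, 2248 and 2202 CPM in vehicles 1, 2 and 3. Their groups did not overlap in that sum, while those of the erythroid and stroma sums did, so the order between these ends differed. Of the members 21 of 30 were highest in vehicle 1 (70.0%, against 33.5% of all tested genes). In inhibitor 1, 20 of 30 were lowest (66.7%, against 21.3%). Of the macrophage genes 86.7% were highest in vehicle 1 and 66.7% lowest in inhibitor 1, and of the stroma genes 100% and 63.6%. Without vehicle 1 the median was 0.273 for erythroid genes, -1.88 for macrophage genes and -0.369 for the members. Among the synthetases 6 of 6 were highest in vehicle 1, and among the serine and folate enzymes 2 of 6. The part of any of these cell types in the members' values was not tested.

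Among the transcription factors and regulators, 4 of 6 had a negative log2 fold change. edgeR called 1 lower, Nupr1 (1.19% of all tested genes), while DESeq2 called Nupr1, Trib3 and Atf5 lower (6.04% of its genes). Nupr1 (RefSeq gene on GRCm38, as for all gene positions here, chromosome 7, 126623246 to 126625470) had 5.82, 6.25 and 6.43 CPM in inhibitors 1, 3 and 5, against 19.6, 12 and 13.3 CPM in vehicles 1, 2 and 3. The groups did not overlap, and the inhibitor libraries lay close together. Nupr1 fell by 1.28 ± 0.22 on the log2 scale (SE over 3 libraries a group, adjusted p = 0.0428 by edgeR), to 0.412 times vehicle. With 1 library left out it ran from -1.41 to -1.04. It was called without vehicle 1 and lost its call, with an adjusted p of up to 0.177 by edgeR, without any other library.

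Trib3, a pseudokinase that binds AKT and is induced by ATF4, had the lowest fold change of the members. It stood at 1.89, 1.90 and 1.39 CPM in inhibitors 1, 3 and 5, against 14.8, 3.62 and 4.42 CPM in vehicles 1, 2 and 3. All inhibitor libraries lay below all vehicles, and vehicle 1 was far above the other vehicles. Trib3 thus had a log2 fold change of -2.14 ± 0.56 (SE; adjusted p = 0.0907 by edgeR), and -1.23 without vehicle 1, where it was called. Over its alternatives the adjusted p of Trib3 ran from 0.00086 to 0.258.

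Atf4 itself (chromosome 15, 80255184 to 80257545) was the most abundant member per unit length, with means of 85.7 CPM per kilobase in inhibitor and 106 CPM per kilobase in vehicle libraries. It had 137, 156 and 152 CPM in inhibitors 1, 3 and 5, against 197, 182 and 173 CPM in vehicles 1, 2 and 3. The ranges did not overlap but the distance was small, with a log2 fold change of -0.31 ± 0.12 (SE; adjusted p = 0.184 by edgeR, 95% interval -0.59 to -0.04). Its relative Atf5, also controlled at translation, was tight within each group, at 14.6, 15.3 and 16.1 CPM in inhibitors 1, 3 and 5 against 24.5, 23.0 and 24.0 CPM in vehicles 1, 2 and 3. For Atf5 the log2 fold change was -0.63 ± 0.13 (adjusted p = 0.0558 by edgeR), and it ran from -0.67 to -0.59 with 1 library left out. Atf5 shares 4.11% of its annotated exon bases with each of Il4i1 and Nup62 on the opposite strand.

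The remaining regulators turned on vehicle 1. Cebpg, a C/EBP partner of ATF4, had 98.9, 86.3 and 83.1 CPM in inhibitors 1, 3 and 5 and 26.0, 85.9 and 88.6 CPM in vehicles 1, 2 and 3. Only vehicle 1 was low, and the log2 fold change was 0.42 with it and 0.04 without it. Ddit3, which encodes the stress factor CHOP, had 16.8, 17.5 and 15.9 CPM in inhibitors 1, 3 and 5 and 22.8, 10.8 and 10.9 CPM in vehicles 1, 2 and 3. Vehicle 1 lay above and vehicles 2 and 3 below all inhibitor libraries, so that its log2 fold change was 0.18 over all libraries and 0.62 without vehicle 1. Its values were -0.00306 without vehicle 2 and -0.0023 without vehicle 3. Over the alternatives the adjusted p of Ddit3 ran from 0.00178 to 0.997. Ddit3 and Trib3, both stress-induced targets, changed unequally. Counts of Trib3 per kilobase were 0.0476, 0.0461 and 0.037 times those of Ddit3 in inhibitors 1, 3 and 5, against 0.277, 0.142 and 0.172 times in vehicles 1, 2 and 3. The pair was chosen with the values known, so its ratio is given with no test. Trib3 had only 58, 51 and 49 counts in inhibitors 1, 3 and 5. Ddit3 shares 3.97% of its annotated exon bases with Mars on the opposite strand, which matters because the library kit does not mark strand.

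Of the 4 stress effectors and other targets, 0 were called by edgeR or DESeq2 and 0 had an unadjusted p under 0.05. Sesn2, a leucine sensor that restrains mTOR complex 1, had 30.4, 28.8 and 21.6 CPM in inhibitors 1, 3 and 5 and 56.9, 28.3 and 32.6 CPM in vehicles 1, 2 and 3. The groups overlapped, and the log2 fold change of -0.54 ± 0.28 (SE) was -0.18 without vehicle 1. Chac1, which degrades glutathione, was low at 2.15 to 4.07 CPM in inhibitor and 2.00 to 3.85 CPM in vehicle libraries, with a log2 fold change of 0.22 ± 0.36 (SE) that was 0.03 without vehicle 1. Vldlr, a lipoprotein receptor, averaged 1.56 ± 0.54 CPM in inhibitor and 2.36 ± 0.39 CPM in vehicle libraries (SD, n = 3 each). Stbd1, which tethers glycogen to membranes, averaged 0.578 ± 0.039 and 0.383 ± 0.072 CPM in inhibitor and vehicle libraries, on 11 to 28 counts a library. The 95% intervals of the log2 fold change were -0.61 to 1.06 for Chac1, -1.40 to 0.21 for Vldlr and -0.23 to 1.39 for Stbd1, and for Stbd1 every inhibitor library lay above every vehicle.

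The amino acid transporters split, with Slc7a5, Slc3a2 and Slc7a1 low, Slc1a5 overlapping and Slc7a11 high with the inhibitor. With all 6 libraries edgeR called 0 of them. At an unadjusted p under 0.05, 1 was higher and 3 were lower (9.68% and 11.9% of all tested genes). DESeq2 called Slc7a11 higher and Slc7a5, Slc3a2 and Slc7a1 lower (3.95% and 6.04% of its genes). Slc7a5, the light chain of the large neutral amino acid transporter LAT1 (chromosome 8, 121881146 to 121907686), had 44.2, 66.4 and 68.1 CPM in inhibitors 1, 3 and 5, against 192, 109.7 and 123 CPM in vehicles 1, 2 and 3. Every inhibitor library lay below every vehicle. Its log2 fold change was -1.25 ± 0.26 (SE; adjusted p = 0.06 by edgeR), and -0.96 without vehicle 1, where edgeR called it. Over its alternatives the adjusted p of Slc7a5 ran from 0.000141 to 0.192.

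Slc3a2 (chromosome 19, 8706882 to 8723369) encodes the heavy chain CD98, the shared partner that carries the light chains of LAT1 and of the cystine transporter to the membrane. It had 78.1, 86.7 and 82.6 CPM in inhibitors 1, 3 and 5, against 251, 117 and 120.1 CPM in vehicles 1, 2 and 3. The inhibitor libraries lay within a narrow band below all vehicles, and vehicle 1 stood far above the other vehicles. The log2 fold change was -0.98 ± 0.30 (SE; adjusted p = 0.121 by edgeR) and -0.52 without vehicle 1, where it was called. Its adjusted p ran from 0.000474 to 0.295 over the alternatives.

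Slc7a1, the main carrier of arginine and lysine, had 35.5, 55.4 and 61.9 CPM in inhibitors 1, 3 and 5, against 113, 88.0 and 95.1 CPM in vehicles 1, 2 and 3. Inhibitor 1 was the lowest library and the groups did not overlap. Slc7a1 had a log2 fold change of -0.96 ± 0.22 (SE; adjusted p = 0.069 by edgeR), and -0.74 without inhibitor 1. Slc1a5, which carries glutamine, overlapped between groups, at 74.4, 83.8 and 117 CPM in inhibitors 1, 3 and 5 and 118, 81.8 and 84.7 CPM in vehicles 1, 2 and 3. Its log2 fold change was -0.05 ± 0.22 with a 95% interval of -0.56 to 0.46, and 0.14 without vehicle 1, so its direction is not settled.

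Slc7a11, the light chain of the cystine and glutamate exchanger xCT (chromosome 3, 50364936 to 50499087), ran the other way. It had 29.7, 45.4 and 45.3 CPM in inhibitors 1, 3 and 5, against 29.3, 16.4 and 17.3 CPM in vehicles 1, 2 and 3. The groups did not overlap, but inhibitor 1 and vehicle 1 were nearly level. Its log2 fold change was 0.93 ± 0.28 (SE; adjusted p = 0.111 by edgeR) and 1.25 without vehicle 1, where it was called. Over its alternatives the adjusted p of Slc7a11 ran from 1.18e-06 to 0.572.

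**Figure D2:**
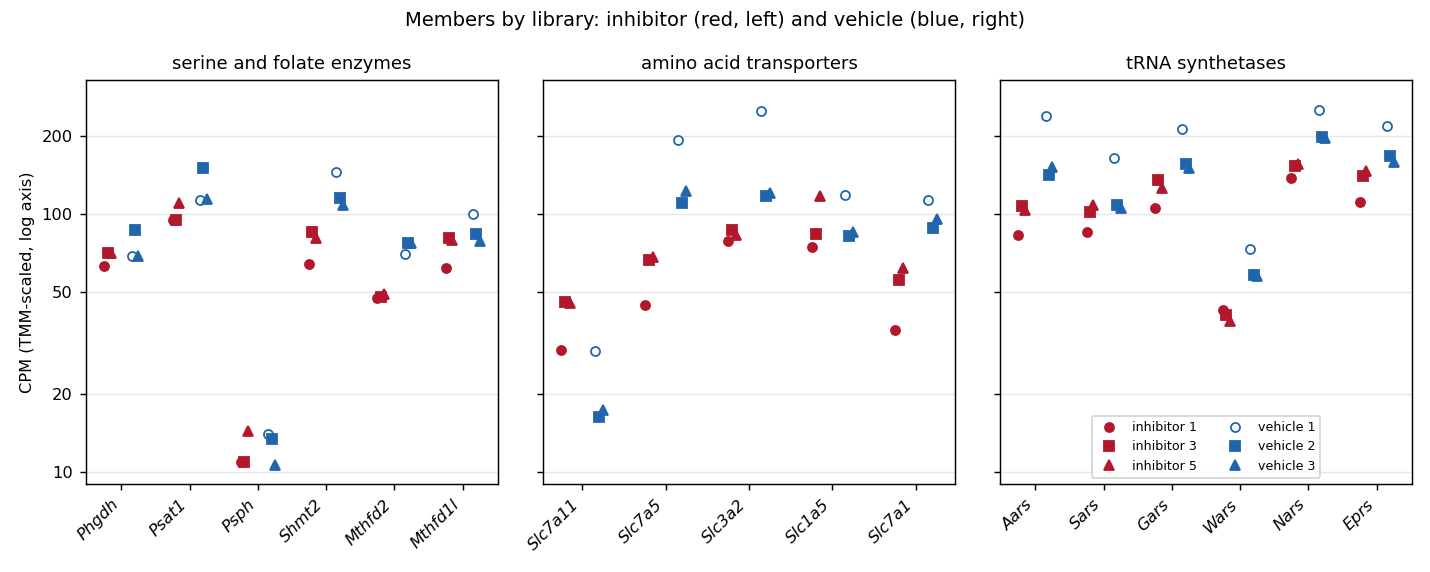
Level of each serine and folate enzyme, amino acid transporter and tRNA synthetase in each library, in CPM on a log axis; inhibitor libraries are red and left of the blue vehicle libraries, and vehicle 1 is open. Slc7a5, Slc3a2, Slc7a1 and Mthfd2 show the inhibitor libraries below all vehicles, and Slc7a11 shows inhibitor 1 and vehicle 1 level at 29.7 and 29.3 CPM.

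Ratios within a library do not depend on its scaling. The ratios of Slc7a11 to the other chains lay farther apart between groups than the level of Slc7a11 did, while that of Slc7a5 to Slc3a2 overlapped. These pairs, like those of the other ratios given here, were chosen after the values were seen, so they are given with no test. Counts of Slc7a11 per kilobase were 0.256, 0.26 and 0.253 times those of Slc7a5 in inhibitors 1, 3 and 5, against 0.058, 0.0568 and 0.0538 times in vehicles 1, 2 and 3. The 3 libraries of each group were nearly equal in this ratio, vehicle 1 included, although their levels of both genes differed. Relative to the shared partner Slc3a2, Slc7a11 stood at 0.122, 0.168 and 0.176 in inhibitors 1, 3 and 5, against 0.0375, 0.045 and 0.0463 in vehicles 1, 2 and 3. Slc7a5 relative to Slc3a2 was 0.476, 0.645 and 0.695 in inhibitors 1, 3 and 5, and 0.646, 0.791 and 0.859 in vehicles 1, 2 and 3, where the groups met at inhibitors 3 and 5 and vehicle 1. A ratio shows unequal change and not which of its genes changed.

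**Figure D3:**
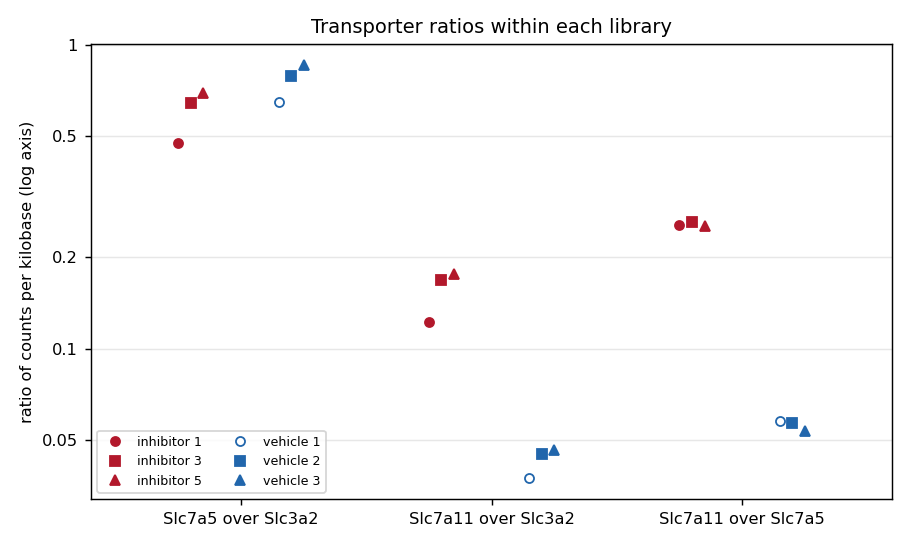
Ratio of counts per kilobase between transporter genes within each library (log axis), with inhibitor libraries in red at the left and vehicle libraries in blue at the right of each pair. Slc7a11 over Slc7a5 lies between 0.253 and 0.26 in inhibitor libraries and between 0.0538 and 0.058 in vehicle libraries.

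Among the serine and folate enzymes, the mitochondrial folate enzymes Mthfd2 and Shmt2 lay lowest relative to vehicle, and the enzymes that make serine from a glycolytic intermediate lay closer to it. edgeR called 1 of the 6 lower (1.19% of all tested genes) and DESeq2 called both Mthfd2 and Shmt2 lower (6.04% of its genes). Mthfd2 (chromosome 6, 83305704 to 83326011), which oxidises one-carbon units on folate in mitochondria, had 47.4, 47.6 and 48.9 CPM in inhibitors 1, 3 and 5, against 70.1, 77.2 and 77.2 CPM in vehicles 1, 2 and 3. Both groups were tight and well apart, and vehicle 1 was the lowest vehicle. Mthfd2 fell by 0.64 ± 0.10 on the log2 scale (SE over 3 libraries a group, adjusted p = 0.0403 by edgeR), to 0.641 times vehicle. With 1 library left out the fold change ran from -0.69 to -0.62. Mthfd2 was called without vehicle 1 and lost its call, with an adjusted p of up to 0.194 by edgeR, without any other library.

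Shmt2, which splits serine into glycine and a one-carbon unit in mitochondria, had 64.2, 84.7 and 80.7 CPM in inhibitors 1, 3 and 5, against 145, 115 and 108 CPM in vehicles 1, 2 and 3. The groups did not overlap, and the log2 fold change was -0.69 ± 0.16 (SE; adjusted p = 0.0758 by edgeR), or -0.55 without vehicle 1. Mthfd1l, the mitochondrial formate-producing synthetase, overlapped at 61.7, 80.5 and 79.4 CPM in inhibitors 1, 3 and 5 and 99.8, 83.2 and 78.2 CPM in vehicles 1, 2 and 3. Its log2 fold change was -0.24, and -0.13 without vehicle 1, less negative than that of Psat1. Within libraries, counts of Mthfd2 per kilobase were 1.61, 1.24 and 1.29 times those of Mthfd1l in inhibitors 1, 3 and 5 and 1.47, 1.94 and 2.07 times in vehicles 1, 2 and 3, so that vehicle 1 lay among the inhibitor libraries.

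The serine synthesis enzymes act in sequence as Phgdh, Psat1 and Psph. Psat1, the aminotransferase of the middle step, had 94.3, 94.4 and 110.4 CPM in inhibitors 1, 3 and 5, against 113, 151 and 114 CPM in vehicles 1, 2 and 3. The groups were separate by a small margin, with a log2 fold change of -0.34 ± 0.15 (SE; adjusted p = 0.251 by edgeR). For Psat1 it was -0.41 without vehicle 1, and limma voom with quality weights called it lower at -0.43 (adjusted p = 0.0352 by voom). Phgdh, the first enzyme, averaged 68.1 ± 4.39 CPM in inhibitor and 74.5 ± 10.3 CPM in vehicle libraries (SD, n = 3 each), and its groups overlapped. Psph, the phosphatase of the last step, averaged 12.1 ± 2.03 and 12.7 ± 1.78 CPM in inhibitor and vehicle libraries. The 95% interval of the log2 fold change was -0.44 to 0.18 for Phgdh and -0.51 to 0.38 for Psph, and the value of Psph turned to 0.0145 without vehicle 1. Psph shares 10.4% of its annotated exon bases with Cct6a on the opposite strand.

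Of the 3 tested enzymes that make other amino acids, edgeR called 0, Aldh18a1 was lower at an unadjusted p under 0.05, and DESeq2 called Aldh18a1 lower with all libraries but not without vehicle 1 (adjusted p = 0.0468 and 0.0767 by DESeq2). Asns, asparagine synthetase and a classical ATF4 target (chromosome 6, 7675165 to 7693209), had 52.0, 78.4 and 77.2 CPM in inhibitors 1, 3 and 5 and 145, 64.6 and 67.6 CPM in vehicles 1, 2 and 3. Inhibitors 3 and 5 lay above vehicles 2 and 3, and vehicle 1 lay above them all. The log2 fold change of -0.42 ± 0.34 (SE, 95% interval -1.21 to 0.37) became 0.06 without vehicle 1. Aldh18a1, which starts proline synthesis from glutamate, had 34.0, 48.3 and 50.2 CPM in inhibitors 1, 3 and 5, against 88.4, 61 and 62.7 CPM in vehicles 1, 2 and 3. All inhibitor libraries were below all vehicles. Its log2 fold change was -0.68 ± 0.21 (SE; adjusted p = 0.123 by edgeR), and -0.49 without vehicle 1. Over its alternatives the adjusted p of Aldh18a1 ran from 0.0404 to 0.342. Pycr1, which ends proline synthesis in mitochondria, was low, at 1.30 ± 0.20 CPM in inhibitor and 1.96 ± 0.55 CPM in vehicle libraries (SD, n = 3 each). Cth, the last enzyme of cysteine synthesis from methionine, had 2, 4 and 7 counts in inhibitors 1, 3 and 5 and 9, 9 and 10 counts in vehicles 1, 2 and 3, and was the member left out of the test for low counts.

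The 6 tRNA synthetases, which load amino acids onto their tRNAs, all had negative log2 fold changes, from -0.85 to -0.36, with a median of -0.52. In 5 of them every inhibitor library lay below every vehicle (16.2% of all tested genes). edgeR called 0 of the 6 with all libraries (1.19% of all tested genes were called lower). At an unadjusted p under 0.05, 5 were lower (11.9%), and DESeq2 called Aars, Wars and Nars lower (6.04% of its genes). Aars, the alanine enzyme, had 83.1, 107 and 104 CPM in inhibitors 1, 3 and 5, against 238, 142 and 152 CPM in vehicles 1, 2 and 3. Its log2 fold change was -0.85 ± 0.22 (SE; adjusted p = 0.0876 by edgeR), and -0.58 without vehicle 1, where it was called. Over its alternatives the adjusted p of Aars ran from 0.00367 to 0.272, and it shares 14.3% of its annotated exon bases with its neighbour Exosc6 on the same strand.

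Wars, the tryptophan enzyme, which interferon also induces, had 42.4, 40.6 and 38.6 CPM in inhibitors 1, 3 and 5, against 73.3, 58.2 and 57.4 CPM in vehicles 1, 2 and 3. The inhibitor libraries were close together and below all vehicles, with a log2 fold change of -0.63 ± 0.13 (SE; adjusted p = 0.0611 by edgeR). Nars, the asparagine enzyme and the second most abundant member per unit length in vehicle libraries at 81.5 CPM per kilobase, averaged 149 ± 9.62 CPM in inhibitor and 216 ± 31.9 CPM in vehicle libraries (SD, n = 3 each). The log2 fold changes of Nars, Gars (glycine) and Eprs (glutamate and proline) were -0.54 ± 0.14, -0.51 ± 0.18 and -0.45 ± 0.17 (SE), and -0.41, -0.33 and -0.30 without vehicle 1. Sars, the serine enzyme, was the synthetase with overlapping groups, at 85.3, 102 and 108 CPM in inhibitors 1, 3 and 5 and 164, 108 and 105 CPM in vehicles 1, 2 and 3. Its log2 fold change was -0.36 ± 0.20 and became -0.12 without vehicle 1. Within libraries, counts of Aars per kilobase were 0.971, 1.05 and 0.957 times those of Sars in inhibitors 1, 3 and 5, against 1.44, 1.31 and 1.44 times in vehicles 1, 2 and 3.

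Set side by side, the median log2 fold change was -0.955 for transporters, -0.521 for synthetases and -0.287 for serine and folate enzymes. Without vehicle 1 these medians were -0.523, -0.369 and -0.297, beside 0.0234 over all genes, so the distance between the roles was smaller in those 5 libraries. Of these 3 roles the transporters spanned the widest range, from -1.25 to 0.93, and the synthetases the narrowest, from -0.85 to -0.36. Differences between the roles were described and not tested, since genes of 1 role share libraries and were chosen with results known.

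Genes of the same pathways outside the members lay mostly on the same side. Their counts stand beside 11.9% of all tested genes lower and 9.68% higher at an unadjusted p under 0.05. edgeR called 1.19% of all tested genes lower, and DESeq2 called 6.04% of its genes lower. Of 21 tested other amino acid transporters 18 had negative log2 fold changes (median -0.45). At an unadjusted p under 0.05, 11 were lower and 0 higher, and DESeq2 called 9 lower and 0 higher. Without vehicle 1 edgeR called 6 lower and 1 higher (4.89% and 3.10% of the genes in that fit). With all libraries 3 fell in the edgeR test: Slc43a2, which carries branched-chain amino acids, Slc38a7, a glutamine carrier, and Slc7a7, a light chain for cationic amino acids. Slc38a7 had 10.3, 11 and 11 CPM in inhibitors 1, 3 and 5, against 19.2, 17.6 and 19.8 CPM in vehicles 1, 2 and 3, and fell by 0.81 ± 0.14 on the log2 scale (SE, adjusted p = 0.042 by edgeR). Slc43a2 had 58.1, 50.3 and 52.2 CPM in inhibitors 1, 3 and 5, against 121, 84.3 and 103 CPM in vehicles 1, 2 and 3, a log2 fold change of -0.94 ± 0.16 (SE; adjusted p = 0.042 by edgeR). Slc7a7 fell by 0.93 ± 0.16 (SE; adjusted p = 0.0428 by edgeR).

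Of 26 other cytosolic tRNA synthetases listed, 14 were found by symbol in the table. Of these 14, 13 had negative log2 fold changes (median -0.40) and 0 were called by edgeR, with 8 lower at an unadjusted p under 0.05 and 4 lower by DESeq2. The 2 with the smallest p, Iars for isoleucine and Tars for threonine, had values of -0.58 ± 0.14 and -0.66 ± 0.16 (SE). The 17 mitochondrial tRNA synthetases, which serve the separate mitochondrial protein synthesis, had a median of -0.18, with 0 called by edgeR or DESeq2 and 1 higher at an unadjusted p under 0.05. Other serine, glycine and folate genes had 14 of 17 negative values (median -0.32) and 0 calls by edgeR, with 5 lower at an unadjusted p under 0.05 and 2 lower by DESeq2. The smallest p values among them belonged to Aldh1l1, a cytosolic folate dehydrogenase, and Folr2, a folate receptor of macrophages. Aldh1l1 had 2.38, 1.60 and 1.92 CPM in inhibitors 1, 3 and 5, against 16.9, 6.02 and 4.84 CPM in vehicles 1, 2 and 3, a log2 fold change of -2.23 ± 0.51 (SE) that was -1.46 without vehicle 1. Folr2 had 7.87, 20.2 and 16.6 CPM in inhibitors 1, 3 and 5, against 159, 37.1 and 46.8 CPM in vehicles 1, 2 and 3, a log2 fold change of -2.44 ± 0.62 (SE) that was -1.50 without vehicle 1. For both genes the groups did not overlap, and vehicle 1 was far above the other vehicles.

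The 20 further ATF4 and stress response targets were mixed, with 13 negative values and a median of -0.29, which was 0.011 without vehicle 1. edgeR called 0 of them, DESeq2 2 lower, and 4 had an unadjusted p under 0.05, of which 3 were negative. Gdf15, a stress-induced secreted factor, had 0.0651, 0.0372 and 0.198 CPM in inhibitors 1, 3 and 5, against 2.05, 0.58 and 1.10 CPM in vehicles 1, 2 and 3. These low values rest on 2, 1 and 7 counts in the inhibitor libraries and 72, 21 and 69 counts in the vehicle libraries. Hmox1, haem oxygenase, which is also high in macrophages, had 80.9, 103 and 88.0 CPM in inhibitors 1, 3 and 5, against 644, 195 and 227 CPM in vehicles 1, 2 and 3, a log2 fold change of -1.97 ± 0.45 (SE) that was -1.22 without vehicle 1. Upstream of ATF4, the 14 eIF2 kinases and eIF2 machinery genes had a median of -0.16 with 0 called by edgeR or DESeq2 and 0 at an unadjusted p under 0.05. The 19 unfolded protein response genes had a median of -0.29, and 17 of them were negative. edgeR called 0 of these, DESeq2 called 2 lower and 1 higher, and an unadjusted p under 0.05 was reached by 4 negative and 1 positive gene.

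The 18 proliferation genes had a median of -0.09 with 0 called by edgeR or DESeq2 and 0 at an unadjusted p under 0.05, and summed to between 5410 and 6275 CPM in inhibitor and between 5918 and 6505 CPM in vehicle libraries. The 6 serine and folate enzymes, which feed nucleotide synthesis, summed to 341, 389 and 405 CPM in inhibitors 1, 3 and 5, against 511, 526 and 457 CPM in vehicles 1, 2 and 3. The groups did not overlap in that sum, while they overlapped in the proliferation sum. Singly, 3 of the 6 enzymes had every inhibitor library below every vehicle (16.2% of all tested genes), and 3 overlapped. The difference between these lists was not tested.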

How the data were processed

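RNA was purified from recipient marrow with a column kit, turned into full-length cDNA (SMART-Seq v4) and into Nextera XT libraries, per the labels' protocols; this chemistry does not mark strand. The submitters' processing notes name STAR, featureCounts and the mm10 build. Tool versions, annotation and strand setting are not given in the sources used here. Per the file headers, the authors deposited a single matrix holding raw read counts for every gene and library, together with gene lengths and the values of their own comparison. For that comparison the deposited columns are p-values before and after adjustment, log2 fold changes and the linear ratio. The test behind those columns is unknown here.

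The comparison of inhibitor with vehicle was fitted in R 4.3.3 with edgeR 4.0.16. Its steps were filterByExpr on the groups (12806 of 14992 genes kept), TMM scaling, glmQLFit and glmQLFTest on group alone, all 6 libraries, and Benjamini-Hochberg adjustment over all tested genes with a threshold of 0.05. Standard errors are the size of the log2 fold change divided by the square root of F, and 95% intervals use the test's degrees of freedom. CPM use TMM-scaled library sizes. Intervals and errors cover the spread between 3 libraries a group. Alternatives were DESeq2 1.42.0, DESeq2 size factors, TMM without the 10 most abundant genes, no filter, 5 CPM in 3 libraries, limma 3.58.1 voom with quality weights, leaving out each library, and a block on the replicate number. DESeq2 without vehicle 1 was added after seeing the data. In 3 simulated runs of this comparison over 12806 genes with 200 changed genes, edgeR recovered 41.3% of 2-fold changes with 6.39% of all its calls false, and 24.8% of DESeq2's calls were false. The simulated counts were drawn with edgeR's own dispersion estimates. They held fewer changed genes than DESeq2 called in the data, 592 higher and 904 lower. The false shares therefore do not carry over to the calls given here. The closest libraries of a group, vehicles 2 and 3, differed by a chi-square of 27.3 per degree of freedom, so none was counted as a duplicate.

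The members and all lists were chosen with earlier results of these data known. Every member is described or counted. Of other lists, called genes and up to 2 with the smallest p are named. Exon overlaps come from GENCODE M21, and gene positions and promoters from RefSeq (GRCm38.p6), both on the build of mm10.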

Additional observations from a re-analysis of the deposited data

How the results depend on the processing

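For the members called higher and lower, 0 and 2 over all 6 libraries, DESeq2 gave 1 and 12, limma voom with quality weights 2 and 13, and the replicate number as a block 0 and 0. With 1 library left out edgeR gave 0 to 2 higher and 0 to 8 lower, and DESeq2 without vehicle 1, added later, gave 2 and 11. Over all genes, edgeR called 81 higher and 153 lower. DESeq2 called 592 and 904, voom 1374 and 1483, the block 0 and 7, single omissions 0 to 401 and 0 to 633, and DESeq2 without vehicle 1 called 893 and 983. The median of the members was -0.334 by voom against -0.521. That of the transporters was -0.532 by voom, -1.03 to -0.523 over single omissions and -0.535 by DESeq2 without vehicle 1, against -0.955. Mthfd2 and Nupr1 lost their calls under the block and without any library but vehicle 1. The cause of these differences was not tested, beyond that single omissions leave fewer libraries.

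Directions turned in 4 members. Psph was -0.207 to 0.0145 over single omissions (0.0137 without inhibitor 1, 0.0104 without inhibitor 3) and 0.00335 by DESeq2 without vehicle 1. Slc1a5 was 0.0403 by voom, -0.256 to 0.139 over omissions (0.0935 and 0.024 without inhibitors 1 and 3) and 0.127 by DESeq2 without vehicle 1. Ddit3 was -0.00306 to 0.624 over omissions. Asns was 0.122 by voom, -0.618 to 0.0645 over omissions and 0.0525 by DESeq2 without vehicle 1. Of 415 single member values, 346 kept direction and call, 43 gained a call, 12 lost one and 14 turned. The other 2 scalings and the 2 other filters (25 members remained at 5 CPM) changed no member's call or direction, and no alternative moved the median of all genes beyond 0.0242.

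The replicate numbers 1 and 3 occur in both groups. Deviations from the group means correlated at -0.442 for number 1 and -0.0504 for number 3. These values cannot exclude pairs, since vehicle 1 lay far from vehicles 2 and 3 and so shifted the mean of its group. Its chi-square per degree of freedom was 209.8 against vehicle 2 and 258.4 against vehicle 3. The main fit therefore used group alone, with the block as an alternative. In the replicate block fit 8 members were lower at an unadjusted p under 0.05, as were 7.04% of all genes. With 3 libraries a group, edgeR recovered 41.3% of simulated 2-fold changes. Chac1, Pycr1, Vldlr, Stbd1 and Cth were under 5 CPM in every library, and Trib3 in all but vehicle 1. What part depth has in their errors was not tested.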
